A study of Homo sapiens with 4 samples.

Results

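The Krüppel-like factors described here are the genes KLF3, KLF4, KLF5, KLF6, KLF7, KLF9, KLF10, KLF11, KLF13 and KLF16, 10 of the 34500 genes to which transcripts of the deposited tables could be assigned. They were taken by name from the GENCODE release 29 transcript-to-gene map, which gave them 51 transcripts of 173259 in the tables. The cells were MCF10A, an immortalised, non-tumorigenic human mammary epithelial line, and every library came from cells with the scramble shRNA, a control hairpin. They grew with epidermal growth factor, cholera toxin, insulin, hydrocortisone and horse serum. Treated cells received 5 ng/ml TGF-β1, and RNA was sequenced from 2 control libraries at 0 h and 2 libraries at 1.5 h. None of these libraries was from untreated cells at 1.5 h. An effect of TGF-β1 therefore cannot be told apart from one of elapsed time or handling. The labels call the libraries of a group biological duplicates and name no separate day or culture for them, so p-values measure only the spread between these libraries.

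Krüppel-like factors are transcription factors that bind GC-rich and CACCC-type DNA through zinc fingers at their C-terminal end. The rest of each protein recruits partners, and this sets the members apart. KLF10, first described as the TGF-β inducible early gene TIEG, and its close relatives KLF9, KLF11, KLF13 and KLF16 recruit the SIN3A co-repressor, and KLF3 recruits CtBP. KLF4, KLF5, KLF6 and KLF7 can act as activators. In epithelia KLF5 is tied to growth of basal cells and KLF4 to growth arrest and differentiation.

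The libraries held 35737659 to 40792300 estimated counts. All 8 genes listed for basal mammary epithelium reached 1 TPM, with summed levels of 5129 to 8165 TPM. The list includes EPCAM and CDH1, which are not particular to basal cells. None of the 6 blood and endothelial markers reached 1 TPM (sums of 0.556 to 1.34 TPM). Of 6 fibroblast markers, COL1A2, COL3A1, LUM and PDGFRB stayed under 1 TPM everywhere, and the sum of 19.4 to 28.2 TPM came mostly from DCN. COL1A1 was at 2.96 and 1.99 TPM in the controls and 8.76 and 4.40 TPM after TGF-β1, and its part in the results was not tested. Of 7 luminal markers, PGR and KRT19 stayed under 1 TPM, and the sum of 505 to 701 TPM came mostly from KRT8 and KRT18. ESR1 was at 1.09 to 1.37 TPM, GATA3 at 1.35 to 2.87 TPM and FOXA1 at 4.71 to 9.72 TPM. TPM is a share of all transcripts corrected for their length, so that levels can be compared between genes. The libraries numbered 2 differed from those numbered 1 in both groups, and each change is therefore also given within a replicate number.

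After 1.5 h of TGF-β1 the KLF mRNAs did not move together. On the CPM scale, estimated counts scaled to a common library size, mean KLF10 was 4.23-fold and mean KLF4 2.60-fold higher, KLF5 was 1.86-fold lower, KLF7 was 1.40-fold higher, and KLF6 was lower in both replicate numbers but by very different amounts. KLF3, KLF9, KLF11, KLF13 and KLF16 had overlapping groups. In bulk RNA, fewer cells with a transcript and less of it per cell cannot be told apart. In CPM the groups did not overlap for 5 of the 10 members, KLF4, KLF5, KLF6, KLF7 and KLF10, and for 16.2% of all 14774 tested genes. KLF4, KLF7 and KLF10, 3 of 10, lay higher (7.87% of tested genes), and KLF5 and KLF6, 2 of 10, lay lower (8.34%). Both replicate numbers gave the same direction for 7 of 10, against 54.9% of tested genes. All 10 members passed the filter on low counts. They were chosen with earlier results of these data known, so their shares beside those of all genes are description only.

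With Benjamini-Hochberg adjustment, edgeR (quasi-likelihood test) called none of the 10 members at an adjusted p under 0.05, and 0.00% of all tested genes. At an unadjusted p under 0.05 it had KLF4, KLF5, KLF7 and KLF10, 4 of 10, where 1.73% of tested genes had such a p (1.34% higher and 0.386% lower). DESeq2's Wald test called 2 of 10, KLF10 and KLF4, both higher, against 0.458% of the 19649 genes for which it gave an adjusted p (0.422% higher and 0.0356% lower). With the replicate number as a block, edgeR called 4 of 10, KLF4, KLF5, KLF7 and KLF10, and 2.27% of tested genes, though what a number marks is not stated in the labels. "Rose" is used below only of genes past the threshold in DESeq2's test, and is named as such. The median log2 fold change was 0.06 over the members and -0.01 over all tested genes. Given how the members were chosen, the shares and medians beside those of all genes are no test of the list.

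**Figure D1:**
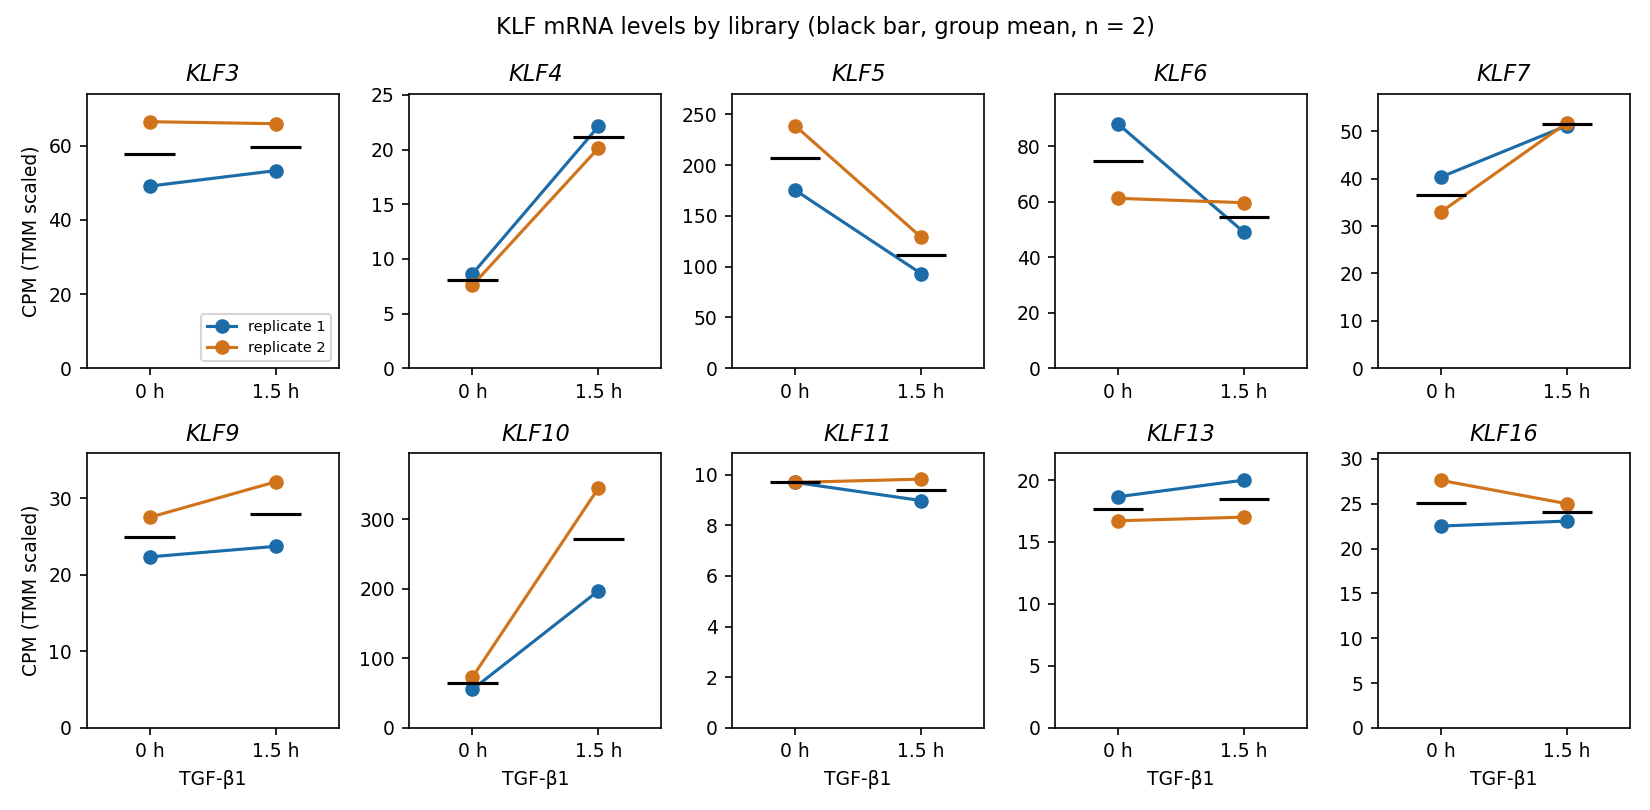
Level of each KLF mRNA in the 4 libraries, in CPM (y axis from 0), at 0 h and 1.5 h of TGF-β1. Lines join libraries with the same replicate number and black bars are means of 2 libraries. KLF10 and KLF4 lie higher at 1.5 h in both replicate numbers, KLF5 lies lower in both, and KLF6 is clearly lower only in replicate 1.

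KLF10 (ENSG00000155090, chromosome 8, 102648779 to 102655902, minus strand, GRCh38) had 55.3 CPM in control replicate 1 and 72.9 CPM in control replicate 2, and 197 and 345 CPM in TGF-β1 replicates 1 and 2. Both treated libraries were above both controls, and the treated libraries lay further apart than the controls. The means were 64.1 ± 12.4 and 271 ± 104 CPM (SD, n = 2, as for all later means). The gain was 3.56-fold within replicates 1 and 4.73-fold within replicates 2. Only 40 of the 14774 tested genes had a larger gain in the weaker of their replicate numbers.

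By DESeq2, KLF10 rose with an adjusted p of 6.98e-07, and its edgeR log2 fold change was 2.08 ± 0.34 (SE), with an adjusted p of 0.782. The interval of edgeR's log2 fold change (95%) ran from 1.17 to 2.99. DESeq2 called it without each single library in turn. Among the edgeR fits that left out a library, the call was made only without TGF-β1 replicate 1 (adjusted p = 0.0238), where its log2 fold change was 2.42.

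KLF11, the closest relative of KLF10 in name and history (TIEG2), was at 9.69 and 9.69 CPM in the controls and at 8.97 and 9.82 CPM after TGF-β1. The treated libraries lay on either side of the controls. Its log2 fold change was -0.04 ± 0.16 (SE), with a 95% interval from -0.49 to 0.40. A change of KLF11 as large as that of KLF10 lies outside this interval, though the difference between both genes was not tested. Its locus is on chromosome 2, from 10042849 to 10054836.

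KLF4, an activator and repressor best known as a pluripotency factor and as a brake on epithelial growth, had 8.63 and 7.59 CPM in the controls and 22.1 and 20.1 CPM in the TGF-β1 libraries. The gene lies on the minus strand of chromosome 9, from 107484852 to 107490482. The groups were well apart, and the libraries of each group were close together. The means were 8.11 ± 0.738 and 21.1 ± 1.40 CPM, and the gain was 2.56-fold within replicates 1 and 2.65-fold within replicates 2. By DESeq2 KLF4 rose (adjusted p = 2.87e-05), with an edgeR log2 fold change of 1.38 ± 0.16 (SE) and an adjusted p of 0.368. DESeq2's call ended when control replicate 2 (adjusted p = 0.252) or either TGF-β1 library was left out (0.605 for replicate 1, 0.0917 for replicate 2). The fold change itself stayed between 1.29 and 1.49 on the log2 scale in these fits.

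KLF5, an activator that promotes proliferation of basal epithelial cells, went the other way. The gene lies on the plus strand of chromosome 13, from 73054976 to 73077542. Its levels were 175 and 239 CPM in the controls and 93.1 and 129 CPM after TGF-β1. Both treated libraries lay below both controls, and in each group replicate 2 was the higher. The means were 207 ± 44.8 and 111 ± 25.3 CPM, a 1.86-fold difference, with 1.88-fold within replicates 1 and 1.85-fold within replicates 2. KLF5 passed neither test (edgeR log2 fold change -0.90 ± 0.25 (SE), adjusted p = 1.00; DESeq2 adjusted p = 0.330). Replicate 2 exceeded replicate 1 by 0.44 in the controls and by 0.47 after TGF-β1 on the log2 scale, which is smaller than the difference between the groups. Of the tested genes, 59 had a larger drop in the weaker of their replicate numbers.

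KLF7, an activator studied mainly in neurons, had 40.3 and 33.0 CPM in the controls and 51.2 and 51.8 CPM after TGF-β1. The gene lies on the minus strand of chromosome 2, from 207074137 to 207167267. The groups did not overlap, and the treated libraries were nearly equal. Its log2 fold change was 0.49 ± 0.14 (SE), with 0.34 within replicates 1 and 0.65 within replicates 2, and it passed neither test (adjusted p = 1.00 by edgeR and by DESeq2).

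KLF6, a growth-restraining factor that is itself an early response gene in many cells, had 88.1 and 61.3 CPM in the controls and 49.0 and 59.7 CPM after TGF-β1. The gene lies on the minus strand of chromosome 10, from 3775996 to 3785281. The CPM values did not overlap, but control replicate 2 and TGF-β1 replicate 2 were close. In TPM the groups overlapped, at 36.1 and 23.9 TPM in the controls and 22.2 and 25.1 TPM after TGF-β1. Within replicates 2 the treated library was thus the higher in TPM. The log2 difference was -0.85 within replicates 1 and -0.04 within replicates 2. KLF6 passed neither test (edgeR log2 fold change -0.46 ± 0.23 (SE), adjusted p = 1.00). Without control replicate 1 its edgeR log2 fold change was -0.17, and without control replicate 2 it was -0.70.

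The remaining members, mostly repressors, had overlapping groups. KLF3, which silences genes through CtBP, was at 49.1 and 66.5 CPM in the controls and 53.3 and 66.0 CPM after TGF-β1, so that libraries of the same number were closer than libraries of the same group. Its log2 fold change was 0.04, with a 95% interval from -0.52 to 0.60. KLF9, a glucocorticoid-induced repressor, had 22.3 and 27.5 CPM in the controls and 23.7 and 32.1 CPM after TGF-β1. The groups overlapped, and its log2 fold change was 0.16, with an interval from -0.42 to 0.75.

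KLF13, known in lymphocytes as an activator of the chemokine gene CCL5, had 18.6 and 16.7 CPM in the controls and 20.0 and 17.0 CPM after TGF-β1. Its log2 fold change was 0.07, with an interval from -0.37 to 0.50. KLF16, a GC-box binding repressor, had 22.5 and 27.6 CPM in the controls and 23.1 and 25.0 CPM after TGF-β1. The treated values lay inside the range of the controls, and its log2 fold change was -0.06, with an interval from -0.50 to 0.38. For these 4 genes and KLF11 the upper ends of the intervals ran from 0.38 to 0.75, below the log2 fold change of 1.38 measured for KLF4.

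**Figure D2:**
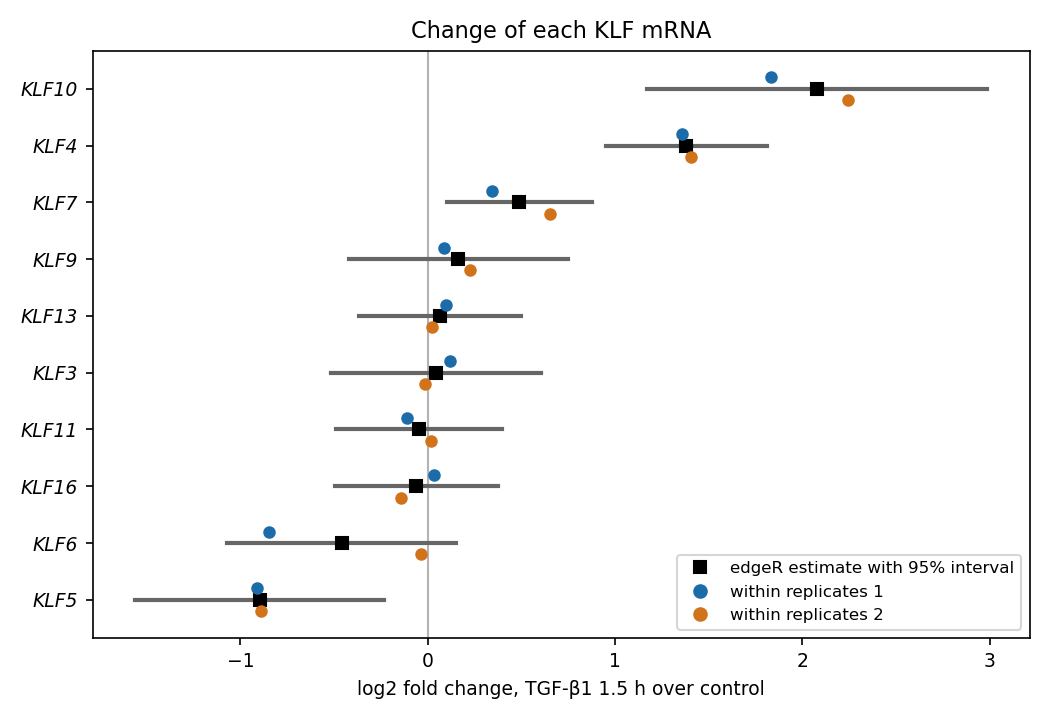
Log2 fold change of each KLF mRNA, TGF-β1 1.5 h over control. Black squares are edgeR estimates from 4 libraries with their 95% intervals (grey lines), and dots are the differences within replicates 1 (blue) and within replicates 2 (orange). The intervals of KLF10, KLF4 and KLF7 lie above 0 and that of KLF5 below 0, while the dots of KLF6 lie at -0.85 and -0.04.

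On the TPM scale KLF5 was the most abundant of the members in control cells, at 119 ± 31.7 TPM, ahead of KLF6 at 29.97 ± 8.60 and KLF10 at 28.99 ± 5.27 TPM. KLF3 (16.4 ± 3.64), KLF16 (12.2 ± 1.60) and KLF7 (12.1 ± 2.73 TPM) came next. KLF9 (6.62 ± 0.881), KLF4 (4.47 ± 0.470), KLF13 (4.38 ± 0.101) and KLF11 (3.59 ± 0.238 TPM) were the lowest. Among neighbours in this order, the libraries of KLF6 and KLF10, of KLF16 and KLF7, and of KLF4 and KLF13 overlapped, and those of the other neighbours did not.

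After TGF-β1 the order opened with KLF10 at 119 ± 40.5 TPM, ahead of KLF5 at 62.4 ± 17.8 and KLF6 at 23.7 ± 2.05 TPM. KLF7 (17.3 ± 2.56 TPM) stood in the fourth place and KLF4 (11.2 ± 1.13 TPM) in the seventh. KLF13 and KLF11 were still the lowest, at 4.66 ± 0.386 and 3.69 ± 0.656 TPM. Here the libraries of KLF7 and KLF3 overlapped, as did those of KLF16 and KLF4.

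The order of KLF5 and KLF10 was the opposite in the treated libraries. The ratio of KLF10 to KLF5 in TPM was 0.262 and 0.232 in the controls and 1.82 and 1.97 in the TGF-β1 libraries. KLF10 made up 11.7% and 12.6% of the summed TPM of the 10 members in the controls and 38.6% and 46.3% after TGF-β1. For KLF5 the shares were 44.7% and 54.4% in the controls and 21.2% and 23.5% after TGF-β1. The sum itself was 216 and 259 TPM in the controls and 235 and 319 TPM in the treated libraries, so it was higher in each treated library than in the control of the same number, while the groups overlapped. Without transcripts under 200 bases, a variant added after the data were seen, the sums were 210.5 and 233 TPM in the controls and 235 and 305 TPM after TGF-β1. These groups did not overlap, but control replicate 2 (233.1 TPM) and TGF-β1 replicate 1 (234.5 TPM) were nearly equal. These shares describe mRNA, not protein, and were not tested.

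**Figure D3:**
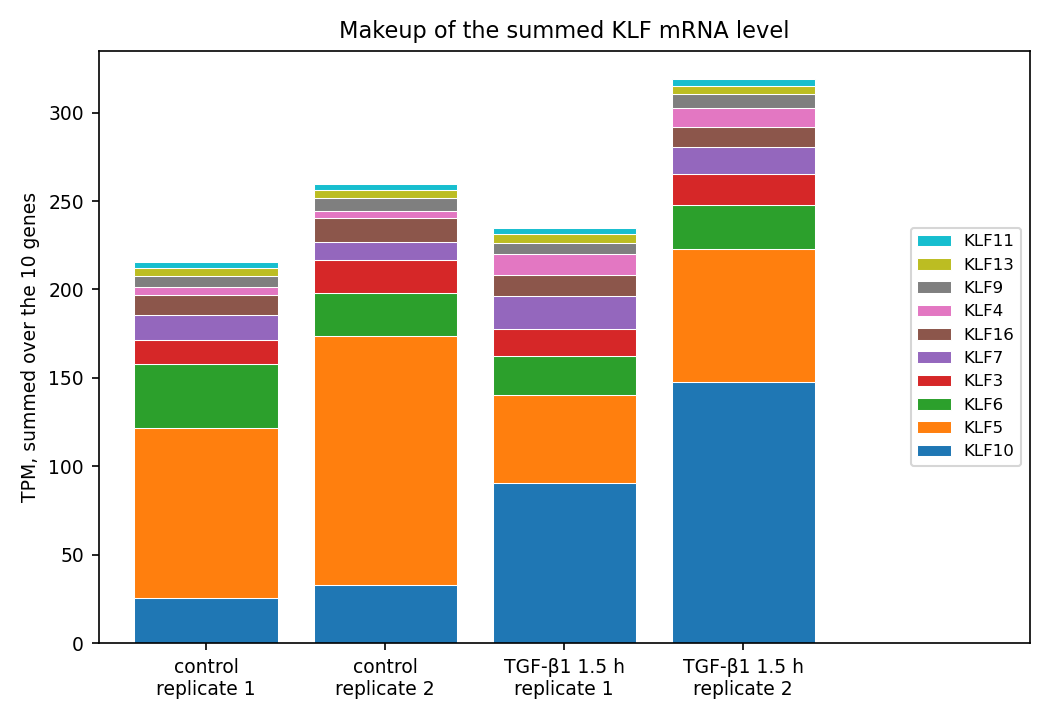
Summed TPM of the 10 KLF genes in each of the 4 libraries, stacked by gene, y axis from 0. KLF10 (blue, at the bottom) takes 25.3 and 32.7 TPM in the controls and 90.5 and 148 TPM after TGF-β1, and KLF5 (orange) takes 96.4 and 141 and then 49.8 and 75.0 TPM.

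The assignment of reads to these genes rests on sequence that is their own. Of the 31-base words in the transcripts of KLF4, KLF5, KLF6, KLF10 and KLF11, 0 occur in a matched transcript of another gene. No member shares one with another member. The largest shares found in other genes were 2.92% for KLF3 and 0.898% for KLF7. Of the 84 such words of KLF7, 80 occur in the pseudogene KLF7P1. Of the 183 of KLF3, 42 occur in the pseudogene KLF3P1, 38 in DFFB and 36 in MAN2B2.

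Of the 51 member transcripts, 25 held at least 10% of their gene's TPM in 1 library or more. Not all of these are described below, and some varied strongly within a group. KLF4-206 had 40.7 and 9.76e-07 estimated counts in the controls, and 27.9 and 65.8 after TGF-β1. KLF11-201 held 12.4% and 36.3% of its gene's TPM in the controls, and 22.1% and 30.0% after TGF-β1. KLF10 was read almost entirely as the transcript KLF10-201, which held 97.2% and 98.1% of the gene's TPM in the controls and 98.2% and 98.9% after TGF-β1. This transcript went from 24.6 and 32.1 TPM to 88.9 and 146 TPM. The minor transcript KLF10-202 was also higher in each treated library, at 0.710 and 0.624 TPM in the controls and 1.58 and 1.66 TPM after TGF-β1, and passed neither test. For KLF10-201 the edgeR log2 fold change on single transcripts was 2.10 ± 0.35 (SE), adjusted p = 0.996, and DESeq2 called it (adjusted p = 6.14e-06). Over single transcripts edgeR called 0.00% of 57796 and none of the 26 tested transcripts of the members (6 at an unadjusted p under 0.05, where 2.97% of all had one). DESeq2 called 3 member transcripts and 0.691% of all: KLF10-201, KLF4-201 and KLF4-205.

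Within KLF4, an intron-retaining and a spliced transcript were both higher after TGF-β1. The main coding transcript KLF4-201 went from 3.14 and 2.52 TPM to 8.35 and 6.49 TPM. KLF4-205, annotated as a retained-intron transcript, went from 0.485 and 0.382 TPM to 2.44 and 2.26 TPM. This was a gain of 4.96-fold within replicates 1 and 6.16-fold within replicates 2 in CPM, against 2.62-fold and 2.73-fold for KLF4-201. The log2 fold changes were 2.45 ± 0.37 (SE) for KLF4-205 (DESeq2 adjusted p = 0.0116) and 1.42 ± 0.25 (SE) for KLF4-201 (DESeq2 adjusted p = 0.0189), and edgeR gave both an adjusted p of 0.996. The difference in gain between both transcripts was not tested.

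In share of the gene's TPM, KLF4-205 went from 10.1% and 9.25% in the controls to 20.4% and 21.8% after TGF-β1, with no overlap and no test. It rests on few reads, 31.9 and 23.6 estimated counts in the controls and 158 and 138 after TGF-β1. The other retained-intron transcript, KLF4-204, had 0.310 and 0.897 TPM in the controls and 0.486 and 0.292 TPM after TGF-β1, with overlapping groups.

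What sets KLF4-205 apart is a start inside an intron. It keeps the last 180 bases of the intron ahead of the large KLF4 exon (chr9:107488268-107488447, minus strand, GRCh38), which KLF4-201 splices out. The 40 bases around that border are shown because a read across it comes from RNA that keeps this end of the intron. Such RNA can be KLF4-205 or unspliced KLF4 RNA, and single reads were not examined here. They are from the GENCODE release 29 transcript (chr9:107488248-107488287), with the intron in lower case and the exon in capitals.
KLF4-205 border: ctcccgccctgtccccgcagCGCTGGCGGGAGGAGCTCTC

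The main coding transcripts of KLF5 begin at 2 different starts. KLF5-205 begins at position 73054976 of chromosome 13 and KLF5-201 begins 3816 bases further along, at 73058792. KLF5-205 had 54.0 and 63.5 TPM in the controls and 23.8 and 39.0 TPM after TGF-β1. KLF5-201 had 22.5 and 38.1 TPM in the controls and 15.6 and 14.4 TPM after TGF-β1. For both, each treated library was below each control.

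The replicate numbers differed in which start had the larger drop. KLF5-205 was 2.30-fold lower in CPM within replicates 1 and 1.54-fold lower within replicates 2, and KLF5-201 was 1.46-fold and 2.50-fold lower. The edgeR log2 fold changes were -0.86 ± 0.32 (SE) for KLF5-205 and -0.98 ± 0.30 (SE) for KLF5-201, and neither passed a test over all transcripts (edgeR adjusted p = 1.00 for both). A transcript of 130 bases, KLF5-202, had 3.13 and 15.2 estimated counts in the controls but 5.25 and 26.4 TPM, so a few reads add visibly to the TPM of KLF5. Without transcripts under 200 bases KLF5 was at 103 ± 16.8 TPM in the controls and 55.4 ± 7.90 TPM after TGF-β1.

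The main transcripts of 2 further members had log2 fold changes of the same sign as their genes. KLF7-201 had 4.92 and 4.16 TPM in the controls and 6.10 and 6.22 TPM after TGF-β1, a log2 fold change of 0.48 ± 0.17 (SE). KLF6-206 had 24.0 and 16.5 TPM in the controls and 12.8 and 14.6 TPM after TGF-β1, a log2 fold change of -0.53 ± 0.25 (SE). KLF9 and KLF16 were each read as 1 transcript only, KLF9-201 and KLF16-201. Of the 51 member transcripts, 10 were listed at 0 in all 4 libraries.

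**Figure D4:**
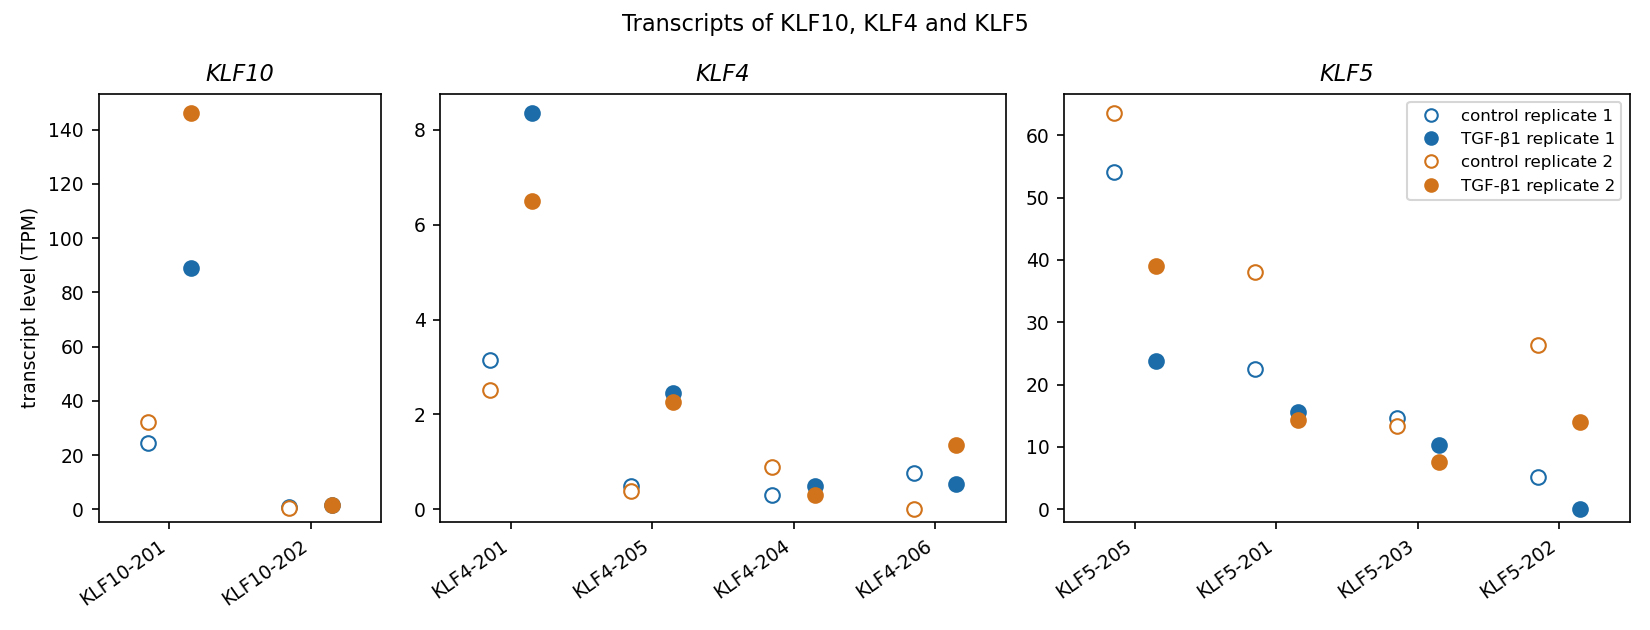
Level in TPM of the main transcripts of KLF10, KLF4 and KLF5 in each library (open points, control; filled points, TGF-β1 1.5 h; blue, replicate 1; orange, replicate 2). KLF10-201, KLF4-201 and KLF4-205 lie higher after TGF-β1 in both replicate numbers, and KLF5-205 and KLF5-201 lie lower.

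RefSeq promoter windows of 300 bases on GRCh38.p14 (250 before and 50 after a start) were counted for 8 of the 10 members, 13 windows in all. KLF3 and KLF10 are not among them, so the counts below do not cover these genes. The GC box GGGCGG, the class of site that Krüppel-like and SP factors bind, was found on either strand in 8 of 13 windows. It was in 44.95% of the 35116 windows counted, and shares of all below refer to these. The 8 windows came from 7 of 8 genes, but no share of genes was counted beyond the members, so only the window shares can be compared. The CACCC box was in 7 of 13 windows and in 59.87% of all. The CAGA-type SMAD element CAGACA was in 2 windows, of KLF4 and KLF7 (16.88% of all). The SMAD palindrome GTCTAGAC and the AP-1 motif TGANTCA were in 0 of 13 (0.2% and 7.71% of all). GC boxes were most frequent in windows of KLF16 and KLF11, whose groups overlapped.

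The 250 bases ahead of the start are printed for KLF4, called higher by DESeq2, for the upstream start of KLF5, which was lower in each replicate number, and for KLF16, whose groups overlapped. Capitals mark GGGCGG or its reverse complement at KLF4 (4 matches) and KLF16 (7 matches, some overlapping), and CACCC or its reverse complement at KLF5 (1 match). The stretches are chr9:107489770-107490019 (minus strand), chr13:73054726-73054975 (plus strand) and chr19:1863580-1863829 (minus strand), each written 5′ to 3′ on the strand of the gene.
KLF4: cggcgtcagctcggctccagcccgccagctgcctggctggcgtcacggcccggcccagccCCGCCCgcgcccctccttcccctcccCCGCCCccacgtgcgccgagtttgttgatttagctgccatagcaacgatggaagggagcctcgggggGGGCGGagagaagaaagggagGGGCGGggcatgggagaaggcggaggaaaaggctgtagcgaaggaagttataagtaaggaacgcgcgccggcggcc
KLF5: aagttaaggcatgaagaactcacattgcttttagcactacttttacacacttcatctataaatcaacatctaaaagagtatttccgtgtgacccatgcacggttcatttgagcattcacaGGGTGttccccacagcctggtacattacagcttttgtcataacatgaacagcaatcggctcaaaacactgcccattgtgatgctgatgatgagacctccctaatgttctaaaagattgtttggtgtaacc
KLF16: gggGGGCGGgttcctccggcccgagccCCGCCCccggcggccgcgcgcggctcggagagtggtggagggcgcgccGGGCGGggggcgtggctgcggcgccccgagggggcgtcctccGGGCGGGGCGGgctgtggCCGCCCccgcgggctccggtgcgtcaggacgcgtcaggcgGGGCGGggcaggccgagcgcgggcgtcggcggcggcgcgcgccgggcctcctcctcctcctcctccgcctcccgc

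The other genes of the SP and KLF family gave no call. Of 17 listed, 9 could be tested, and edgeR and DESeq2 called 0 (0 at an unadjusted edgeR p under 0.05). Their median log2 fold change was -0.06. SP8 and KLF8 had the smallest p of the list, with log2 fold changes of -0.94 ± 0.43 and 0.20 ± 0.28 (SE), and SP8 rests on 7 to 15 counts per library.

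Cofactors and turnover factors of Krüppel-like proteins gave no call either. All 18 were tested, edgeR and DESeq2 called 0 (0 at an unadjusted edgeR p under 0.05), and their log2 fold changes ran from -0.14 to 0.22 with a median of 0.01. SIAH1, a ubiquitin ligase, had 17.9 and 18.0 CPM in the controls and 19.0 and 22.8 CPM after TGF-β1, and BAP1, a deubiquitinase, had 85.5 and 67.7 and then 90.1 and 74.9 CPM. Their log2 fold changes were 0.22 ± 0.16 and 0.11 ± 0.18 (SE), and only the groups of BAP1 overlapped.

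Of 18 genes described elsewhere as targets of Krüppel-like factors, 17 were tested. DESeq2 called 2 higher and 0 lower, where it called 0.422% of all genes higher. edgeR called 0, with 3 at an unadjusted p under 0.05, all higher, where 1.34% of tested genes were higher at such a p. Their median log2 fold change was 0.10. This list was also chosen with earlier results of these data known, so its shares are description only. SMAD7, the inhibitory SMAD that KLF10 is known to repress, had 8.58 and 8.27 CPM in the controls and 129 and 100.1 CPM after TGF-β1, and rose by DESeq2 (adjusted p = 6.27e-47).

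PDGFA, a growth factor whose gene KLF5 is known to activate, had 25.1 and 22.9 CPM in the controls and 62.8 and 40.8 CPM after TGF-β1, while KLF5 was lower in the same libraries. PDGFA rose by DESeq2 (adjusted p = 0.0498), a call that ended when either control was left out (0.326 for replicate 1, 1.00 for replicate 2) and when TGF-β1 replicate 1 was (1.00). CDKN1A, the cell-cycle inhibitor p21 and a target of KLF4 and KLF6, had 175 and 156 CPM in the controls and 280 and 246 CPM after TGF-β1. Its groups did not overlap, and its DESeq2 adjusted p was 0.277. With the replicate number as a block, CDKN1A was called by edgeR (adjusted p = 0.000633) and by DESeq2 (adjusted p = 8.99e-15).

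The genes outside the family whose levels over the 4 libraries were most like those of KLF10 were EFNA1, GNL1, HMOX1, IER5L and FOS. Likeness was the distance between log2 CPM values after centring on each gene's mean. It was taken over 12194 genes with at least 50 counts on average over the 4 libraries. A gene low in the controls could therefore pass through its treated libraries. GNL1 was such a low gene, at 0.856 and 0.956 CPM in the controls and 3.71 and 4.75 CPM after TGF-β1. EFNA1, which encodes the membrane-bound ligand ephrin-A1, was nearest, at a distance of 0.227. EFNA1 had 48.1 and 62.6 CPM in the controls and 148 and 251 CPM after TGF-β1. Replicate 2 was the higher in each group, as with KLF10, a likeness for which EFNA1 was picked. The distances of the other 4 genes were 0.382 for GNL1, 0.409 for HMOX1, 0.433 for IER5L and 0.460 for FOS. With 4 libraries, such a ranking is a description only.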

How the data were processed

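RNA of 4 MCF10A libraries was prepared with a stranded, ribosomal-RNA-depleting kit, per the labels' protocols, while the labels' molecule field says polyA RNA. Reads were quantified by the authors with kallisto (build GRCh38, both per the submitters' processing notes). Version, transcript set and strand setting were not given in the sources used here. Deposited values are estimated counts, which divide ambiguous reads among transcripts, and TPM, per the file headers.

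Here transcripts were matched to GENCODE release 29 without version. Unmatched ones (2.24% to 2.38% of counts) were left out. Gene sums of the estimated counts were rounded. Groups were compared with edgeR 4.0.16 in R 4.3.3 (TMM, filterByExpr, quasi-likelihood test without covariates, Benjamini-Hochberg threshold 0.05). SE is the log2 fold change over the root of F. DESeq2 1.42.0, limma 3.58.1 on log2(TPM + 1) or log2(TPM + 0.1), other filters and scalings, effective lengths as offset, the replicate block and each library left out were alternatives. Leaving out transcripts under 200 bases was added after the data were seen. The functions were tested on simulated data.

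The members, lists and motifs were chosen with earlier results of these data known. Named were all members, called list genes with the 2 smallest p of each list, and the 5 nearest patterns to KLF10. Transcripts were taken from those with at least 10% of a gene's TPM in 1 library, and not all of these are described. KLF10-202 was named after its values were seen. Counting error was not measured separately, and weighs most on transcripts and genes with few counts. With 2 libraries a group, precision is limited.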

Additional observations from a re-analysis of the deposited data

How the results depend on the processing

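The log2 fold changes of KLF10, KLF4, KLF5, KLF6 and KLF7 kept their direction under every alternative run. That of KLF6 was -0.46 as reported and -0.30 with effective lengths as offset. In TPM its groups overlapped. The number of member genes called was 0 by edgeR and 2 by DESeq2 (log2 fold changes 2.09 for KLF10 and 1.39 for KLF4). With single libraries left out it ran from 0 to 2. The number of all genes called was 0 by edgeR, 90 by DESeq2, 15 without a filter and 3 with effective lengths as offset, and ran from 8 to 71 with single libraries left out (8 to 25 by edgeR, 46 to 71 by DESeq2). Member transcripts called were 0 by edgeR and 3 by DESeq2.

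With the replicate number as a block, the number of member genes called was 4 by edgeR and 4 by DESeq2, KLF4, KLF5, KLF7 and KLF10 in both. In these blocked fits the log2 fold changes were 2.04 and 2.05 for KLF10, 1.38 and 1.39 for KLF4, -0.90 and -0.89 for KLF5, and 0.49 and 0.50 for KLF7 by edgeR and DESeq2. Among the named targets, both blocked fits called SMAD7, PDGFA and CDKN1A. All genes called with the block were 335 (2.27%) by edgeR and 245 by DESeq2. What a replicate number stands for is not stated in the labels. Over 14696 genes the difference between replicate 2 and replicate 1 in the controls correlated with that in the TGF-β1 libraries (Pearson r = 0.685, across genes, which are not independent).

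The members near 0 turned sign. KLF3 was at -0.0095 and -0.0092 by limma with pseudocounts 1 and 0.1, and KLF11 at 0.083 with effective lengths and at 0.025 and 0.029 by limma. The cause was not tested. With single libraries left out, log2 fold changes ran from 1.63 to 2.43 for KLF10, 1.29 to 1.49 for KLF4, -1.14 to -0.66 for KLF5, -0.70 to -0.16 for KLF6, 0.35 to 0.66 for KLF7, -0.15 to 0.28 for KLF3, -0.062 to 0.37 for KLF9, -0.10 to 0.016 for KLF11, -0.060 to 0.19 for KLF13, -0.20 to 0.10 for KLF16, -0.094 to 0.45 for KLF8 and -0.056 to 0.30 for BAP1. Such fits leave 1 arm with 1 library, assumed to vary like the other group. A share of estimated counts in place of TPM moved 32 of 50 isoform shares by more than the spread between replicates.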
